A study of Mus musculus with 18 samples.

Results

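The step from mouse embryonic stem cells (ESC) to mesoderm (MES) was described here across all genes with at least 1 FPKM in either stage, where FPKM is a read level scaled to transcript length and to the reads of the library. Of the 20310 genes in the table of stages, 10605 met this limit and are called counted genes. RNA-seq was done on 18 samples in the series, and the 4 used for this step were 2 ESC and 2 MES samples of one reporter line of strain 129, in which GFP is driven from the *Brachyury* (*T*) locus. ESCs were grown on mouse embryonic fibroblast feeders (MEFs) in medium with leukaemia inhibitory factor (LIF), and the label of the ESC samples names no sort. MES cells came from embryoid bodies made from the same line and were sorted by flow cytometry as GFP positive and FLK1 negative, FLK1 being the product of *Kdr*. Both stages thus share the genotype, and they differ in culture, in the sort and in the presence of feeders. The processing notes of the ESC and MES samples also name different tools, as given below. RNA was depleted of ribosomal RNA, without selection for poly(A) tails, and read on a SOLiD sequencer as single-end reads of 50 bp.

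When a pluripotent epiblast cell enters the primitive streak, it leaves an epithelium, switches off the factors that hold it pluripotent and switches on T-box and homeobox factors under Nodal, BMP, Wnt and FGF signals. The cells that leave the streak spread as mesenchyme and form paraxial, lateral plate and blood-forming mesoderm. Embryoid bodies run through a similar order of events in culture.

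In the deposited table each row is a transcription start site (TSS), and a stage has 1 column that merges its 2 replicates. No replicate error, standard deviation or test can therefore be given for any value here. Rows of a gene were summed, and the change is log2(FPKM + 1) in MES minus that in ESC, a scale that understates changes of low genes. A gene is said to have risen or fallen where this change was at least 1 or at most -1, a 2-fold difference on that scale. FPKM does not hold the number of reads, so the counting error behind a value is unknown. By this limit 737 of the 10605 counted genes rose (6.95%) and 774 fell (7.3%), and the median change was 0.0044. A change of at least 4-fold was met by 76 genes upwards and by 112 downwards. Of the risen genes 157 began below 1 FPKM, and of the fallen genes 241 ended below it. These were counted through the higher stage only, so that for them the direction followed from the limit. The risen gene next to the limit had a change of 1.0002 and the one just outside it 0.9997. The fallen gene next to the limit fell by 1.0007, and the one just outside it reached 1 only after rounding. In the counts below, a list's share is to be read against 6.95% and 7.3%, and since the lists were drawn up with earlier results of these data known, a list's count is a description.

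**Figure D1:**
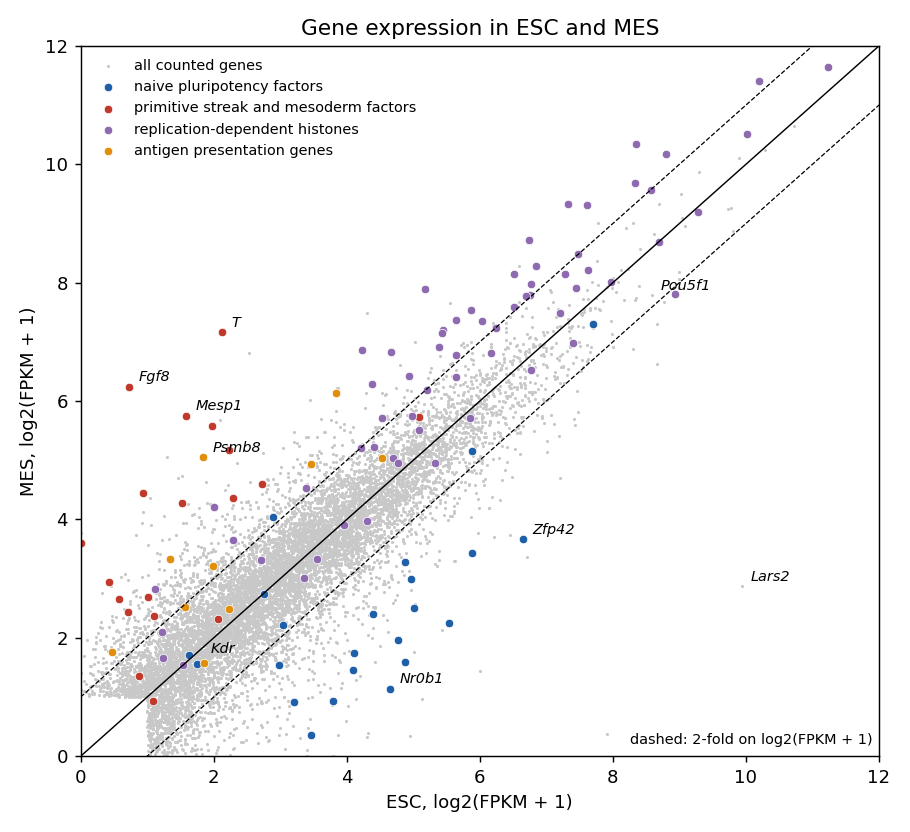
Each point is 1 of the 10605 counted genes, with its level in ESC on the x axis and in MES on the y axis, both as log2(FPKM + 1); the solid line marks equal levels and the dashed lines a 2-fold difference. Naive pluripotency factors lie mostly below the lower line, primitive streak factors mostly above the upper line, and 32 of 64 histone genes lie above it.

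The sorting genes were looked at first. *T*, the T-box factor whose locus carries the GFP, lies at chr17:8434423-8442496 in mm10 and had 3.36 FPKM in ESC and 142 FPKM in MES, a change of 5.04. *Kdr*, which encodes FLK1, had 2.53 and 2.15 FPKM, a change of -0.16, against 77.6 FPKM in the FLK1-positive haemangioblast stage (HB). MES cells were thus high in the gene they were sorted for and low in the gene they were sorted against, and these 2 values describe the sort. In bulk samples fewer cells of a type and less RNA per cell cannot be told apart, which holds for every difference below.

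Levels of feeder and blood cell genes were measured in both stages. Of 30 fibroblast genes in the table, 14 were counted, 4 rose and 3 fell, with a median change of 0.28. Their summed level was 160.7 FPKM in ESC and 98.6 FPKM in MES, against 13249 and 10372 FPKM in untreated MEFs at day 12 and day 21, which come from a table normalized separately. *Tagln*, an actin-binding protein of smooth muscle, made up most of the sum, with 124 FPKM in ESC and 62.9 in MES. Untreated MEFs had 199 FPKM of it at day 12 and 73.25 FPKM at day 21, so that the ESC level lay between these. The collagen genes that define fibroblasts were near 0 in ESC: *Col1a1* had 0.524 FPKM, *Col1a2* 0.82 FPKM and *Col3a1* 0.63 FPKM, where untreated MEFs at day 12 had 2409, 1711 and 1877 FPKM. *Acta2*, smooth muscle actin, fell from 14.3 to 1.37 FPKM, *Thy1* from 2.89 to 0.655 FPKM and *Postn* from 1.5 to 0.0996 FPKM. In untreated MEFs at day 12 these had 258, 249 and 699 FPKM. The members that rose were *Col1a1*, to 3.09 FPKM in MES, *Col5a1*, from 3.54 to 9.85 FPKM, *Fbn1*, from 0.84 to 3.04 FPKM, and *Twist1*, from 1.13 to 6.29 FPKM. The share of feeder cells in the ESC samples was not tested.

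Embryonic globin RNA was measured in ESC and was near 0 in MES. Of 15 red cell genes measured, 6 were counted, none rose and 4 fell, and these 4 were counted through ESC only. The embryonic globins *Hbb-bh1*, *Hba-x* and *Hbb-y* had 29.9, 12.8 and 9.6 FPKM in ESC, and 0.268, 0 and 0 FPKM in MES. These ESC levels were 0.577%, 1.2% and 1.81% of those in the haematopoietic progenitor stage (HP). Summed over the list, ESC held 115.5 FPKM, MES 59.6 FPKM, HB 99.6 FPKM and HP 7158 FPKM. *Tfrc*, the transferrin receptor that most dividing cells use, made up about the whole MES sum at 58.1 FPKM, and had 58.8 FPKM in ESC. Of 19 macrophage genes 3 were counted, and *Laptm5*, a lysosomal protein of blood cells, fell from 7.39 to 0.0862 FPKM. Its ESC level was 6.11% of the 121 FPKM in macrophages (MAC), and HP had 15.1 FPKM. Summed over the macrophage list, ESC held 21.5 FPKM, MES 20.9 FPKM and MAC 15689 FPKM, with 3 members at 0 in ESC and 7 in MES. *Lgals3*, a galectin that other cells also make, made up most of the MES sum, with 9.89 FPKM in ESC and 18.1 FPKM in MES. *Spp1*, osteopontin, was outside these lists and had 63 FPKM in ESC, 1.73 in MES and 11303 in MAC, so that the ESC level was 0.558% of the MAC level. *Anxa1*, an annexin, had 16.7, 1.45 and 695 FPKM in the same stages. A share of blood cells or of blood cell RNA in the ESC samples was not tested.

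Naive pluripotency factors fell as a group. All 24 factors in the table were counted, 16 fell, 1 rose and the median change was -2.14. Among those that fell, *Dppa3*, *Tcl1* and *Nr5a2* ended below 1 FPKM and were counted through ESC only. *Nr0b1*, an orphan nuclear receptor, went from 24.2 to 1.2 FPKM, a change of -3.51. *Esrrb*, a nuclear receptor that sustains self-renewal, went from 28.3 to 2.02 FPKM and *Tfcp2l1*, a factor downstream of LIF, from 16.1 to 1.76 FPKM. *Zfp42*, the zinc finger factor REX1 and a standard marker of the naive state, went from 99.5 to 11.7 FPKM, a change of -2.98. *Klf5* went from 31.1 to 4.65 FPKM, *Fgf4* from 26.3 to 2.89 FPKM, *Dppa3* from 12.8 to 0.901 FPKM and *Tcl1* from 9.99 to 0.281 FPKM. Against these, *Nanog* had 58.1 and 34.6 FPKM, a change of -0.73 that did not pass the limit. *Klf4*, *Prdm14* and *Tbx3* had 2.38, 2.11 and 3.2 FPKM in ESC and 1.95, 2.29 and 3.99 FPKM in MES, so that 3 factors of the naive state were low in both stages. The member that rose was *Il6st*, the shared receptor chain of the LIF family, from 6.42 to 15.6 FPKM.

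Factors shared by naive and primed pluripotent cells fell less. Of 14 counted, 5 fell, none rose and the median change was -0.67. *Pou5f1* (OCT4) had 383 FPKM in ESC and 220 in MES, a change of -0.80, and *Sall4* had 77.9 and 41.8 FPKM. *Sox2*, the partner of OCT4, fell from 69.4 to 17.2 FPKM, *Utf1* from 30.1 to 6 FPKM and *Foxd3* from 6.48 to 0.764 FPKM. *Lin28a*, an RNA-binding inhibitor of let-7 maturation, had 93.1 and 106 FPKM, and *Tdgf1*, the Nodal co-receptor, had 100.4 and 92.2 FPKM. MES cells thus kept a larger part of the ESC level of *Pou5f1* than of *Sox2*. Among 11 oncofetal RNA-binding genes, which include *Lin28a*, *Igf2bp1* and *Trim71*, none rose or fell.

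Genes of the formative and early epiblast state went both ways. Of 19 counted, 4 rose and 5 fell, with a median change of -0.22. *Fgf5*, the standard marker of postimplantation epiblast, rose from 2.42 to 17.2 FPKM and *Zic2* from 2.41 to 13.5 FPKM. *Dnmt3l*, the cofactor of the de novo DNA methylases, fell from 104 to 9.27 FPKM, a change of -3.35, and *Pou3f1* (OCT6) from 13.2 to 2.21 FPKM. Germline genes, many of which are silenced by promoter methylation in somatic cells, were mostly lower: of 19 counted 8 fell and 1 rose, with a median change of -0.87. *Rpl10l* went from 20.6 to 2.01 FPKM, *Tex19.1* from 19.8 to 3 FPKM and *Tdrd12*, a piRNA pathway protein, from 6.74 to 0.61 FPKM. Among the 8 that fell, *Tdrd12*, *Mael*, *Stk31*, *Piwil2* and *Syce1* ended below 1 FPKM and were counted through ESC only. The member that rose was *Dnd1*, an RNA-binding protein of primordial germ cells, from 3.92 to 18 FPKM. Of 19 genes of the 2-cell-like state, 4 were counted and 3 fell, and these 3 were counted through ESC only.

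Primitive streak and mesoderm factors rose as a group, and 15 of the 19 counted rose while none fell. The median change of the 19 was 2.09. The 15 include *T*, for which the cells were sorted. They also include *Fgf8*, *Evx1*, *Gsc*, *Msgn1*, *Lhx1* and *Nkx1-2*, which began below 1 FPKM. These were counted through MES only, so that their direction followed from the limit. *Fgf8*, the FGF ligand of the streak that cells need to leave it, rose from 0.659 to 74.8 FPKM, a change of 5.51. *Mesp1*, a basic helix-loop-helix factor of the earliest cardiac and cranial mesoderm, rose from 2 to 52.9 FPKM. *Mixl1*, a homeobox factor of the streak, rose from 2.91 to 46.9 FPKM, and *Eomes*, a T-box factor, from 3.68 to 34.9 FPKM. *Evx1* rose from 0.909 to 20.8 FPKM, *Cdx2* from 1.87 to 18.4 FPKM and *Gsc*, the organizer homeobox gene, from 0.343 to 6.67 FPKM. *Msgn1*, a factor of presomitic mesoderm, was listed at 0 in ESC and had 11.1 FPKM in MES. Anterior genes of the list that did not pass the limit include *Hhex*, with 1.12 and 0.905 FPKM. In HB the levels of *T*, *Fgf8* and *Mesp1* were 36.4, 6.76 and 42.9 FPKM, below those in MES, while *Mixl1* and *Eomes* had 80.5 and 55 FPKM, above those in MES, and *Evx1* had 21.4 FPKM.

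**Figure D2:**
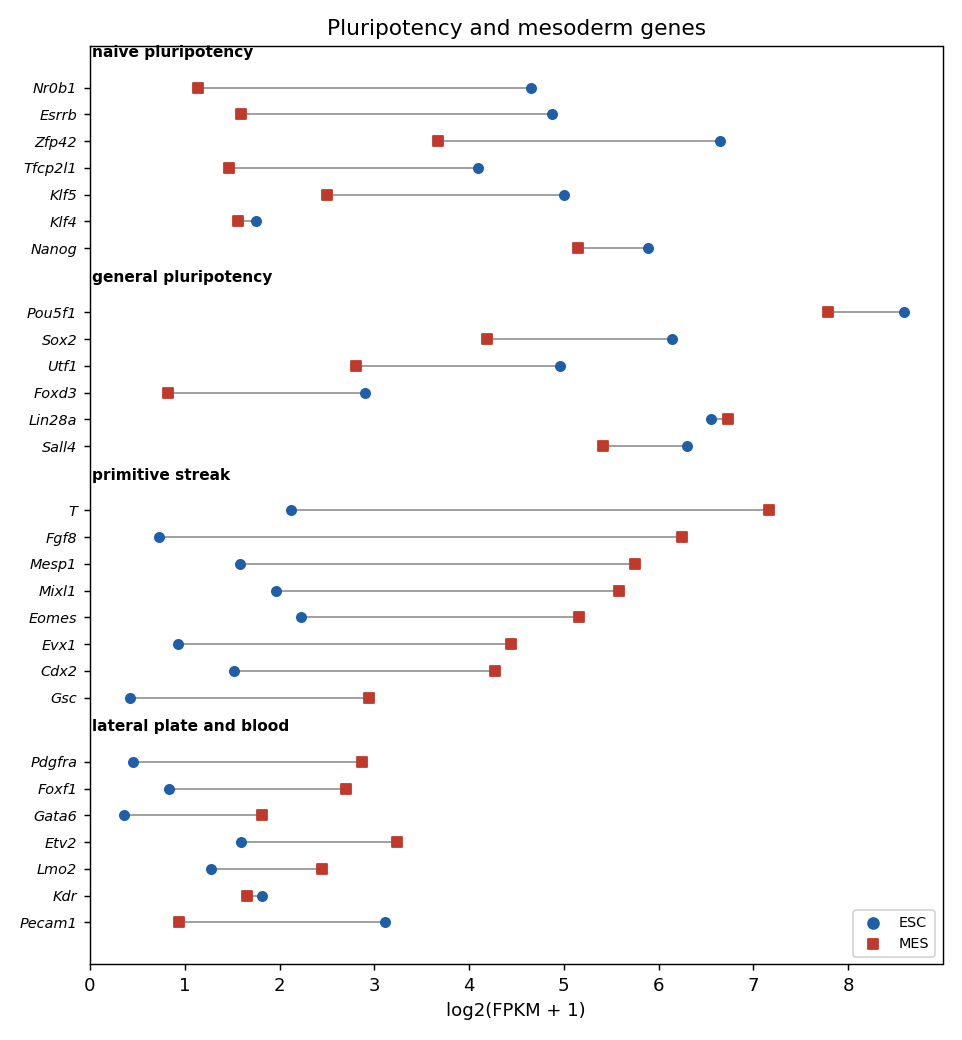
Levels of named genes in ESC (circles) and MES (squares) on the x axis as log2(FPKM + 1), grouped by role, each point being the merged value of 2 replicates. All the naive factors shown lie higher in ESC, though *Nanog* and *Klf4* by less than 2-fold, and all the streak genes shown lie higher in MES.

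Promoter windows of 2 of these genes are printed because *T* and *Sp5*, a zinc finger factor that rose from 3.91 to 19.5 FPKM, are known targets of Wnt signalling through TCF/LEF factors. Windows run from 250 bases before the RefSeq start to 50 bases from it, in build GRCm38.p6, and the window of *T* is chr17:8434173-8434472 on the plus strand and that of *Sp5* chr2:70474673-70474972 on the plus strand. Capitals mark the letters CTTTGA on either strand, the core that TCF/LEF factors bind.
T: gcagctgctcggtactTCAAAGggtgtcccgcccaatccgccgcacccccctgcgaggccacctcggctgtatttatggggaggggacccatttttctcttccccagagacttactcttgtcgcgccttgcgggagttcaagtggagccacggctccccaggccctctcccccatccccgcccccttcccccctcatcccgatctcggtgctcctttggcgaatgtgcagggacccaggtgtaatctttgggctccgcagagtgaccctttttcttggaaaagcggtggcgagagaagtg
Sp5: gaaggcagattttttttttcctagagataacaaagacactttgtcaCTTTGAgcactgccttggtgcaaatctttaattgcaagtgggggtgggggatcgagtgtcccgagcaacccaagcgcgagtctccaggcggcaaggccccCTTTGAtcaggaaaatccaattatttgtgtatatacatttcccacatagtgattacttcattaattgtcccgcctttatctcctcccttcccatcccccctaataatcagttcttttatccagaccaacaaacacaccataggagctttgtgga

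The window of *T* held this core once, 234 bases before the start and on the opposite strand, and that of *Sp5* held it 2 times, 204 and 104 bases before the start. Of 17 windows of streak and mesoderm factors, 5 held it (29.4%), against 12.9% of 737 windows of risen genes, 11.3% of 794 windows of fallen genes, 11.2% of 10952 windows of counted genes and 16% of all 32851 windows in the table. It was in 21.7% of windows of interferon-stimulated genes and 20% of those of beta-catenin targets. In the remaining lists searched it was in at most 16.7%. Among 18 windows of naive factors 1 held it, that of *Nr0b1*, which fell. The T-box core GGTGTGA, searched on both strands, was in 3.39% of windows of risen genes, 2.02% of those of fallen genes and 3.98% of all windows. A match of letters is a description, and binding was not measured.

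The markers of the next steps were uneven in MES. Of 9 counted paraxial and somite genes 4 rose and 1 fell, with a median of 0.88. *Cyp26a1*, the enzyme that breaks down retinoic acid, rose from 3.29 to 50 FPKM and *Rspo3*, a secreted Wnt agonist, from 0.888 to 14.4 FPKM, while *Tcf15* fell from 23.4 to 3.92 FPKM. *Rspo3*, *Msgn1* and *Pcdh8*, which rose, began below 1 FPKM and were counted through MES only. Of 13 lateral plate and cardiac genes 6 rose and 1 fell, with a median of 0.55. *Pdgfra*, the PDGF receptor of early mesoderm, rose from 0.372 to 6.3 FPKM, *Foxf1* from 0.786 to 5.53 FPKM, *Gata6* from 0.287 to 2.53 FPKM and *Isl1* from 0.42 to 2.75 FPKM. Each of these began below 1 FPKM and was counted through MES only, so that its direction followed from the limit. Of the posterior patterning genes, 2 of 39 *Hox* genes in the table reached 1 FPKM in either stage, and neither rose or fell.

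Blood and endothelial genes were low in MES, and 12 of 24 were counted. Of these 2 rose and 4 fell, with a median of -0.48, which turned to 0.23 over the 3 genes with at least 5 FPKM. The 4 that fell ended below 1 FPKM and were counted through ESC only, so that their direction followed from the limit. *Etv2*, the ETS factor that starts the blood and endothelial programme, rose from 2.02 to 8.45 FPKM and *Lmo2*, the bridging partner of TAL1, from 1.42 to 4.45 FPKM. Both were higher in HB, at 46.7 and 56.5 FPKM. *Tal1* had 1.48 FPKM in ESC and 0.704 in MES, and 19.9 FPKM in HB. Genes that fell were *Pecam1*, an adhesion molecule also made by ESCs, from 7.68 to 0.92 FPKM, *Tek* from 2.44 to 0.29 FPKM, *Cd34* from 2.04 to 0.407 FPKM and *Gata1* from 1.32 to 0.047 FPKM. The *Gata1* level in ESC lies beside the globin levels given above.

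Genes of other germ layers were also checked. Of 11 counted endoderm genes 2 rose, *Gata6* and *Cxcr4*, and 1 fell, *Cldn6*, from 66.2 to 22.9 FPKM. Among keratin genes of simple epithelia *Krt8* had 88.4 and 98.6 FPKM, its partner *Krt18* 203 and 119.6 FPKM and *Krt19* 84.5 and 80.5 FPKM, and none of these passed the limit. Of 5 counted neural ectoderm genes 4 fell, among them *Tubb3*, neuronal tubulin, from 31.2 to 2.37 FPKM and *Gbx2* from 6.91 to 0.776 FPKM, and *Nes* had 15.6 and 21.9 FPKM. Among the 4, *Gbx2*, *En2* and *Neurod1* ended below 1 FPKM and were counted through ESC only. Of 12 trophoblast genes 6 fell and 2 rose, and the 2 were *Cdx2* and *Eomes*, which the streak also uses. The 6 that fell ended below 1 FPKM and were counted through ESC only. Those that fell include *Rhox5*, from 5.34 to 0.166 FPKM, and *Krt7*, from 7.78 to 0.655 FPKM, and the median of -0.93 turned to 0.11 over the 7 genes with at least 5 FPKM.

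In the Nodal and activin pathway secreted inhibitors rose. Of 19 counted members 6 rose and 2 fell, with a median of 0.35. *Nodal* itself had 28 FPKM in ESC and 35.9 in MES, a change of 0.35 that did not pass the limit. *Fst*, follistatin, which binds activin, rose from 4.79 to 111 FPKM, a change of 4.27. *Lefty1* rose from 9.74 to 41.1 FPKM and *Lefty2* from 10.7 to 41 FPKM, both secreted Nodal inhibitors that Nodal itself induces. *Smad4*, the shared SMAD, rose from 8.66 to 26.6 FPKM. The ligand *Gdf3* fell from 19.9 to 4.27 FPKM and *Pcsk6*, a protease that processes Nodal, from 5.07 to 1.43 FPKM. The named inhibitors were thus higher in MES, the ligand *Gdf3* was lower and the ligand *Nodal* differed by less than 2-fold.

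BMP genes rose in 8 of 22 counted and fell in 1, with a median of 0.46. Among ligands *Bmp4* rose from 4.93 to 10.9 FPKM and *Bmp7* from 1.15 to 3.33 FPKM. Among inhibitors *Smad6* rose from 1.29 to 9.72 FPKM, *Bambi*, a decoy receptor, from 2.19 to 6.84 FPKM and *Bmper* from 0.226 to 3.55 FPKM. The BMP-responsive homeobox genes *Msx1* and *Msx2* rose from 4.72 to 18.5 FPKM and from 2.36 to 9.07 FPKM. *Id1*, another target of BMP, had 110 and 103 FPKM and *Id3* had 30.4 and 50.5 FPKM, neither past the limit.

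In the FGF pathway the ligands changed places. *Fgf4*, the autocrine ligand of ESCs, fell as given above, whereas *Fgf8*, *Fgf5* and *Fgf3* rose, the last from 1.29 to 6.06 FPKM. The feedback genes split too. *Dusp6*, an ERK phosphatase, rose from 52.9 to 125 FPKM and *Il17rd* (SEF) from 9.5 to 21.3 FPKM. *Spry4* fell from 26.3 to 6.72 FPKM, *Dusp14* from 12.2 to 4.6 FPKM and *Etv4*, an ETS factor induced by FGF, from 21 to 8.97 FPKM. Of the 25 counted members 5 rose and 4 fell, and the median of 0.43 turned to -0.57 over the 17 with at least 5 FPKM.

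Wnt ligands rose in 7 of 13 counted and fell in 3, with a median of 1.18. *Wnt3*, which the mouse embryo needs to form a streak, rose from 5.61 to 23.1 FPKM, *Wnt8a* from 1.07 to 14 FPKM and *Wnt3a* from 0.202 to 1.72 FPKM. The ligands of the noncanonical branch *Wnt5a* and *Wnt5b* rose from 1.34 to 11.6 FPKM and from 1.06 to 19.5 FPKM, and *Wnt11* from 0.127 to 1.63 FPKM. *Wnt7b* fell from 5.91 to 0.247 FPKM and *Wnt6* from 6.67 to 2.33 FPKM. Of 26 receptors and inhibitors 5 rose and none fell. They were the receptors *Fzd10*, from 7.23 to 35.8 FPKM, *Lrp5*, from 1.5 to 11.8 FPKM, and *Ror2*, from 2.59 to 9.76 FPKM, the carrier of Wnt proteins *Wls*, from 13.3 to 49.1 FPKM, and the secreted inhibitor *Frzb*, from 0.235 to 3.83 FPKM.

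Known targets of beta-catenin rose in 7 of 20 counted and fell in 3, and the risen members include *T*, *Cdx2* and *Sp5* of the streak list. The median was 0.33, and 1.99 over the 10 members with at least 5 FPKM. *Axin2*, a feedback inhibitor used as a general reporter of the pathway, rose from 2.2 to 15.9 FPKM, *Apcdd1* from 1.88 to 9.83 FPKM and *Lef1* from 2.24 to 7.3 FPKM. *Ccnd1* had 43.3 and 46.6 FPKM, and *Myc* fell from 17 to 6.77 FPKM. *Ctnnb1*, which encodes beta-catenin, had 18.8 FPKM in ESC, against 179, 199, 136 and 499 FPKM in MES, HB, HP and MAC, so that ESC stood apart from the 4 later stages for this gene.

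**Figure D3:**
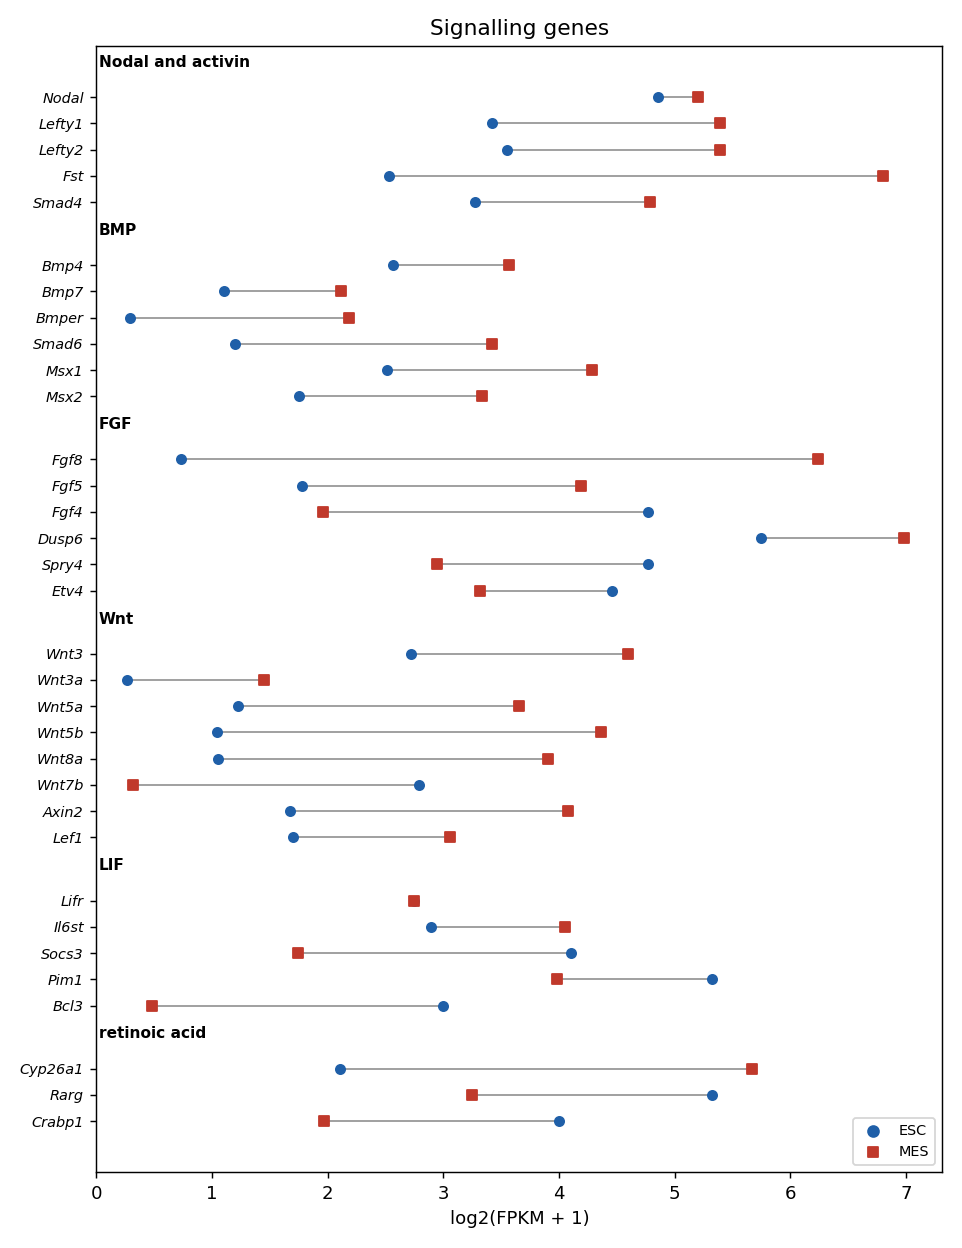
Levels of signalling genes in ESC (circles) and MES (squares) on the x axis as log2(FPKM + 1), grouped by pathway, each point being the merged value of 2 replicates. In the Wnt group *Wnt7b* is higher in ESC and the other genes shown are higher in MES, and *Lifr* is at the same place in both stages.

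Response genes of LIF, the cytokine of the ESC medium, were lower in MES. Of 15 counted members of the LIF and STAT3 list 7 fell and 3 rose. *Socs3*, the feedback inhibitor that STAT3 induces, fell from 16.2 to 2.35 FPKM, *Bcl3* from 7 to 0.399 FPKM, *Pim1* from 39.1 to 14.8 FPKM and *Pim3*, another kinase, from 48.1 to 16.6 FPKM. The receptor chain *Lifr* had 5.73 and 5.71 FPKM, while *Il6st* rose as given above, *Jak2* rose from 2.42 to 6.79 FPKM and *Socs1* from 1.33 to 5.38 FPKM. Response genes thus went down in 4 named cases and up in *Socs1*, the receptor chains did not fall, and the list's median was -0.20.

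Retinoic acid genes were split, with 2 risen and 2 fallen of 11 counted. *Cyp26a1* rose as given above, and the receptor *Rarg* fell from 39.1 to 8.51 FPKM and the binding protein *Crabp1* from 15 to 2.91 FPKM. In the Notch list 2 of 18 rose and 3 fell: *Hes1*, a target, rose from 7.08 to 28.7 FPKM, and *Rbpj*, the DNA-binding factor of the pathway, fell from 10.6 to 2.96 FPKM. Of 9 Hedgehog genes *Gas1*, a co-receptor, rose from 1.25 to 8.89 FPKM and *Smo* from 3.89 to 12.7 FPKM, and 1 fell. In the Hippo list 4 of 21 rose and 2 fell. *Amot* rose from 11.2 to 51.2 FPKM, the coactivator *Yap1* from 22.7 to 51.1 FPKM and its DNA-binding partner *Tead2* from 28.9 to 61.4 FPKM, whereas the target *Ctgf* fell from 48.7 to 8.78 FPKM and *Tead1* from 8.63 to 3.77 FPKM.

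The list of guidance, chemokine and planar polarity receptors, through which mesoderm cells migrate, also holds members that are not receptors, such as the ligand *Apln*. In it 11 of 22 counted genes rose, none fell, and all 22 had a change above 0. Their median was 0.88. *Apln*, apelin, rose from 1.89 to 25.5 FPKM and its receptor *Aplnr* from 1.03 to 7.35 FPKM. *Unc5b*, a netrin receptor, rose from 8.2 to 38.9 FPKM, *Ptk7*, a planar polarity receptor, from 27 to 96.7 FPKM, *Prickle1* from 1.98 to 11.2 FPKM and the chemokine receptor *Cxcr4* from 1.68 to 5.21 FPKM. Of 16 Eph receptors and ephrins 3 rose, *Efna3*, *Efna1* and *Epha1*, and none fell.

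From ESC to MES some epithelial genes fell and some mesenchymal genes rose. Of 38 counted epithelial junction genes 10 fell and 2 rose, with a median of -0.73. *Cdh1* (E-cadherin) had 152 FPKM in ESC and 77.8 in MES, a change of -0.96 just short of the limit, and 6.64 FPKM in HB. *Epcam* had 51.4 and 57 FPKM. Those that fell include the epithelial factor *Grhl2*, from 13 to 3.37 FPKM, the desmosomal plakophilin *Pkp2*, from 35.5 to 11.7 FPKM, and the tight junction gene *Cldn4*, from 84.1 to 30.5 FPKM. *Cldn7* and desmoplakin (*Dsp*) rose, from 7.71 to 26.7 FPKM and from 11.1 to 30.4 FPKM. Of 22 mesenchymal genes 8 rose and 2 fell, with a median of 0.46. *Vim*, vimentin, rose from 45.9 to 199.8 FPKM, *Cdh2* (N-cadherin) from 3.67 to 14 FPKM, *Cdh11* from 1.39 to 15.6 FPKM and *Twist1* from 1.13 to 6.29 FPKM. The bulk MES samples thus held *Cdh1* at 77.8 FPKM beside *Cdh2* at 14 FPKM, and whether the same cells held both was not measured.

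Adhesion families differed in direction. Of 12 cadherins and protocadherins 6 rose and none fell, among them *Pcdh7*, from 0.918 to 16.6 FPKM. Of 12 integrin subunits 4 fell and none rose, with *Itga3* going from 40.7 to 8.9 FPKM and *Itga6*, both subunits of laminin receptors, from 29.6 to 7.73 FPKM, while their partner *Itgb1* had 117 and 122 FPKM. Of 18 basement membrane genes 3 fell and 1 rose. In the actin and muscle-type list of 32, 4 rose and 5 fell, with *Vcl*, vinculin, falling from 59 to 27.6 FPKM.

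DNA methylation genes were among the chromatin lists with most fallen members. Of 15 counted 6 fell and 1 rose, with a median of -0.27. Beside *Dnmt3l*, the 5-methylcytosine oxidases *Tet1* and *Tet2* fell from 25.9 to 5.62 FPKM and from 7.76 to 0.794 FPKM. *Zfp57*, which guards imprints, fell from 40.8 to 10.1 FPKM and its corepressor *Trim28* from 479 to 229.8 FPKM. The de novo methylases did not pass the limit: *Dnmt3b* had 42.6 and 74.6 FPKM and *Dnmt3a* 13 and 12.1 FPKM. *Uhrf2* rose from 9.34 to 30.5 FPKM. Of 26 Polycomb subunits 3 fell, *Pcgf2*, *Phc1* and *Cbx7*, the last from 23.5 to 8.78 FPKM, and none rose. Of 21 imprinted genes *Peg3* rose, from 13.6 to 73.9 FPKM, *Ddc* fell, and 19 did neither.

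Replication-dependent histone genes, whose mRNAs end in a stem-loop without a poly(A) tail, rose in 32 of 64 counted and fell in 1, with a median of 0.998. Their summed level was 11100 FPKM in ESC and 20192 in MES. *Hist1h4j* rose from 35.2 to 238 FPKM, *Hist1h2bk* from 17.7 to 116 FPKM and the linker histone gene *Hist1h1b* from 446 to 1158 FPKM, while *Hist1h3g* fell from 486 to 224 FPKM. Many of these genes are near-identical copies and only uniquely aligned reads were kept, so that levels of single copies are uncertain. The genes of S phase and mitosis did not move with them: of 39 replication genes 2 rose, *Rfc4* and *Mcm6*, and none fell, and of 31 mitosis genes *Ube2c* fell and none rose.

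Among growth regulators *Mycn* fell from 88.8 to 25.2 FPKM and *Mycl1* rose from 4.87 to 23.9 FPKM, so that with *Myc* 2 of the 10 counted MYC family genes fell and 1 rose. *Trp53*, which encodes p53, fell from 146 to 25.1 FPKM, a change of -2.50, and was at 24.1 FPKM in HB. Of 19 genes of the p53 list, which holds *Trp53* itself, 6 fell and 1 rose, with a median of -0.84. They include the targets *Mdm2*, from 48.1 to 17.7 FPKM, *Phlda3*, from 65.5 to 24.1 FPKM, and *Perp*, from 61.6 to 19.4 FPKM, whereas *Cdkn1a* had 21.7 and 10.9 FPKM and did not pass the limit. In 5 of the p53 list members that rose or fell, FPKM + 1 in MES, HB and HP lay within 1.5-fold of each other. Whether the ESC processing described below bears on them was not tested. Of 24 apoptosis regulators 2 fell and 1 rose, with a median of 0.35. The inhibitors *Bcl2l1* and *Mcl1* fell from 30.6 to 6.75 FPKM and from 121 to 51.5 FPKM. Of 29 cyclins and CDK inhibitors 2 rose and 2 fell, shares near those of all counted genes, with *Ccnd2* going from 2.48 to 9.28 FPKM and *Cdkn2a* from 9.64 to 1.45 FPKM.

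Of 28 counted sterol synthesis genes 9 rose, none fell and 19 did neither. The change was above 0 in 21 and below 0 in 7, with a median of 0.70. *Hmgcs1*, an early enzyme of the mevalonate pathway, rose from 51.6 to 123 FPKM. *Lss* rose from 6.41 to 17 FPKM, *Cyp51* from 13.9 to 31.3 FPKM and the regulator *Insig1* from 11 to 23.8 FPKM. The sterol response core TCACNCCAC was in 1 of 25 of their promoter windows, on either strand, against 1.24% of all windows.

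In each of the other metabolic lists more genes fell than rose, though the counts are small beside the 6.95% and 7.3% of all counted genes that rose and fell. Of 27 glycolysis genes 4 fell and none rose, with *Pkm* going from 510 to 241 FPKM. *Tdh*, threonine dehydrogenase, on which mouse ESCs depend, fell from 30.2 to 6.99 FPKM. Of 23 metallothioneins and antioxidant genes 6 fell and 2 rose. The superoxide dismutases *Sod1* and *Sod2* fell from 316 to 117 FPKM and from 22.9 to 6.54 FPKM, and *Gsta4* from 146 to 41.7 FPKM, while the metallothioneins *Mt1* and *Mt2* rose from 21.3 to 46 FPKM and from 8.1 to 28.7 FPKM. Of 52 respiratory chain subunits 4 fell and 2 rose, and the share that fell was near that of all counted genes. Of 23 genes of the integrated stress response 3 fell, among them *Asns*, from 84.4 to 36.6 FPKM, and 1 rose, *Vldlr*, from 0.488 to 3.29 FPKM.

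Genes of antigen presentation, which early embryonic cells make little of, rose in 6 of 10 counted and none fell, with a median of 1.26. *Psmb8* and *Psmb10*, catalytic subunits of the immunoproteasome, rose from 2.6 to 32.1 FPKM and from 13.2 to 69.5 FPKM, the former a change of 3.20. *Tap2*, a subunit of the peptide transporter, rose from 1.54 to 9.02 FPKM and the class I gene *H2-K1* from 10.1 to 29.7 FPKM. *B2m* had 22.1 and 31.8 FPKM. Of 19 interferon-stimulated genes 5 rose and 2 fell, with *Irf1* going from 16 to 46.2 FPKM, *Gbp2* from 21.8 to 53.5 FPKM, *Gbp3* from 1.91 to 14.4 FPKM and *Isg15* from 1.26 to 7.95 FPKM. *Ifitm3* fell from 51.6 to 23.8 FPKM, and *Ifitm1* had 77.5 and 38.6 FPKM. Names in the class I region can share reads, so that *H2-K1* and *H2-Q4* are uncertain. In HB the levels of *Psmb8*, *Psmb10* and *Tap2* were 7.64, 28.3 and 2.19 FPKM and those of *Irf1*, *Gbp2* and *Gbp3* were 12.2, 6.43 and 2.18 FPKM, each below its MES level.

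The promoter of *Psmb8*, the member of this list that rose most, is at chr17:34197945-34198244 on the plus strand, and that of *Zfp42*, which fell, at chr8:43306960-43307259 on the minus strand. Capitals mark TTCNNNGAA, the letters that STAT dimers bind, in *Psmb8*, and ATTTGCAT, the octamer that OCT4 binds, in *Zfp42*, each searched on both strands.
Psmb8: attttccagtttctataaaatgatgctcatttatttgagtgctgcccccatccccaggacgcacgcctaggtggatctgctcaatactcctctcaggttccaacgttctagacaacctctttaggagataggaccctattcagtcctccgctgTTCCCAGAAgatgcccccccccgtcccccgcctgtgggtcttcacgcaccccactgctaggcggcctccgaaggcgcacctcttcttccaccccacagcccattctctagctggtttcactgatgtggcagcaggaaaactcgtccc
Zfp42: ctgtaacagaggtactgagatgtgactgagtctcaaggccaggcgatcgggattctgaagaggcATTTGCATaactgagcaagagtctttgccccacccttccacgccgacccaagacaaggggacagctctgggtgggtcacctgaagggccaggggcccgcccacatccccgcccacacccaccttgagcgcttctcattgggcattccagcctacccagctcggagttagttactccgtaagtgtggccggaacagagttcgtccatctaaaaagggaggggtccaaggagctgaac

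Of 9 windows of antigen presentation genes 2 held TTCNNNGAA, against 7.33% of windows of risen genes and 8.3% of all windows. The octamer was in 1 of 18 windows of naive factors, which is that of *Zfp42*, in 1.51% of windows of fallen genes, 2.04% of those of risen genes and 1.74% of all windows. It was in 2 of 17 windows of streak and mesoderm factors and in 14 of 57 windows of replication-dependent histone genes. In the remaining lists searched it was in at most 5% of windows.

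**Figure D4:**
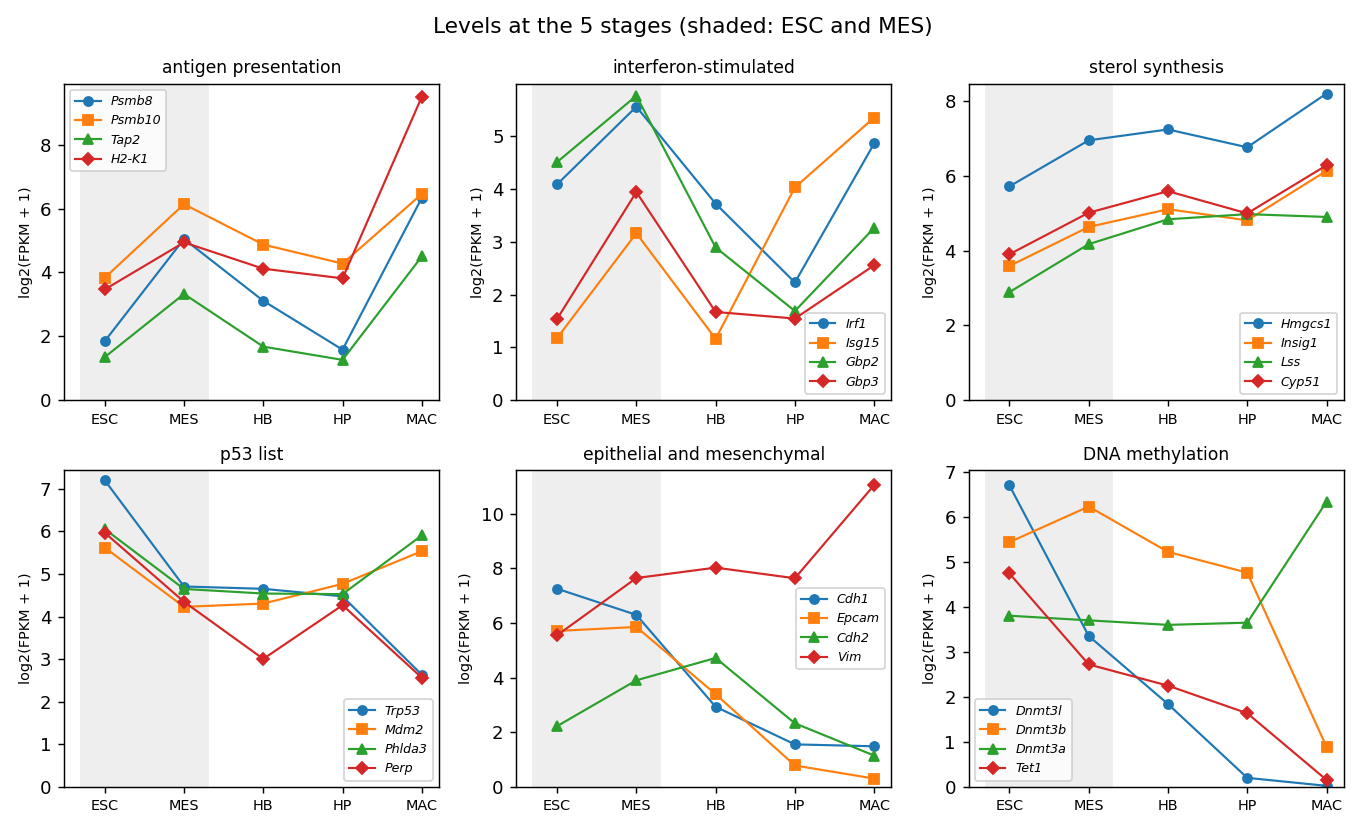
Levels of named genes as log2(FPKM + 1) on the y axis at the 5 stages on the x axis, with ESC and MES shaded; each point is the merged value of a stage. The antigen presentation and interferon-stimulated genes shown are higher in MES than in ESC, HB and, except *Isg15*, HP, and *Trp53* falls from 146 FPKM in ESC to between 21.2 and 25.1 FPKM in MES, HB and HP.

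The remaining families held few called members or went both ways. Of 20 immediate early genes 4 rose and 4 fell, with *Fos* going from 2.5 to 14.2 FPKM and *Ier2* from 13.9 to 46.5 FPKM. Of 18 heat shock genes 2 fell and none rose. In the SOX family of 7 counted, 3 fell and none rose, and *Sox15* went from 5.61 to 0.407 FPKM. In the KLF and SP family of 20, 3 fell and 3 rose, with *Klf5* among the former and *Sp3*, from 10.1 to 30.4 FPKM, beside *Sp5* and *Sp8* among the latter. Of 22 tubulin, kinesin and cilia genes 4 fell and none rose, and *Tubb2b* went from 28.1 to 7.39 FPKM. Of 31 ribosome biogenesis genes 2 rose and 1 fell, with *Ncl*, nucleolin, going from 18.6 to 69.6 FPKM and *Bop1* from 59.8 to 23 FPKM. Outside the lists and chosen after their values were seen, *Psme1*, *Erap1* and *Irgm1* act in peptide processing or the interferon response, and they rose from 11.8 to 43.3 FPKM, from 2.5 to 14.8 FPKM and from 8.99 to 28.6 FPKM.

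**Figure D5:**
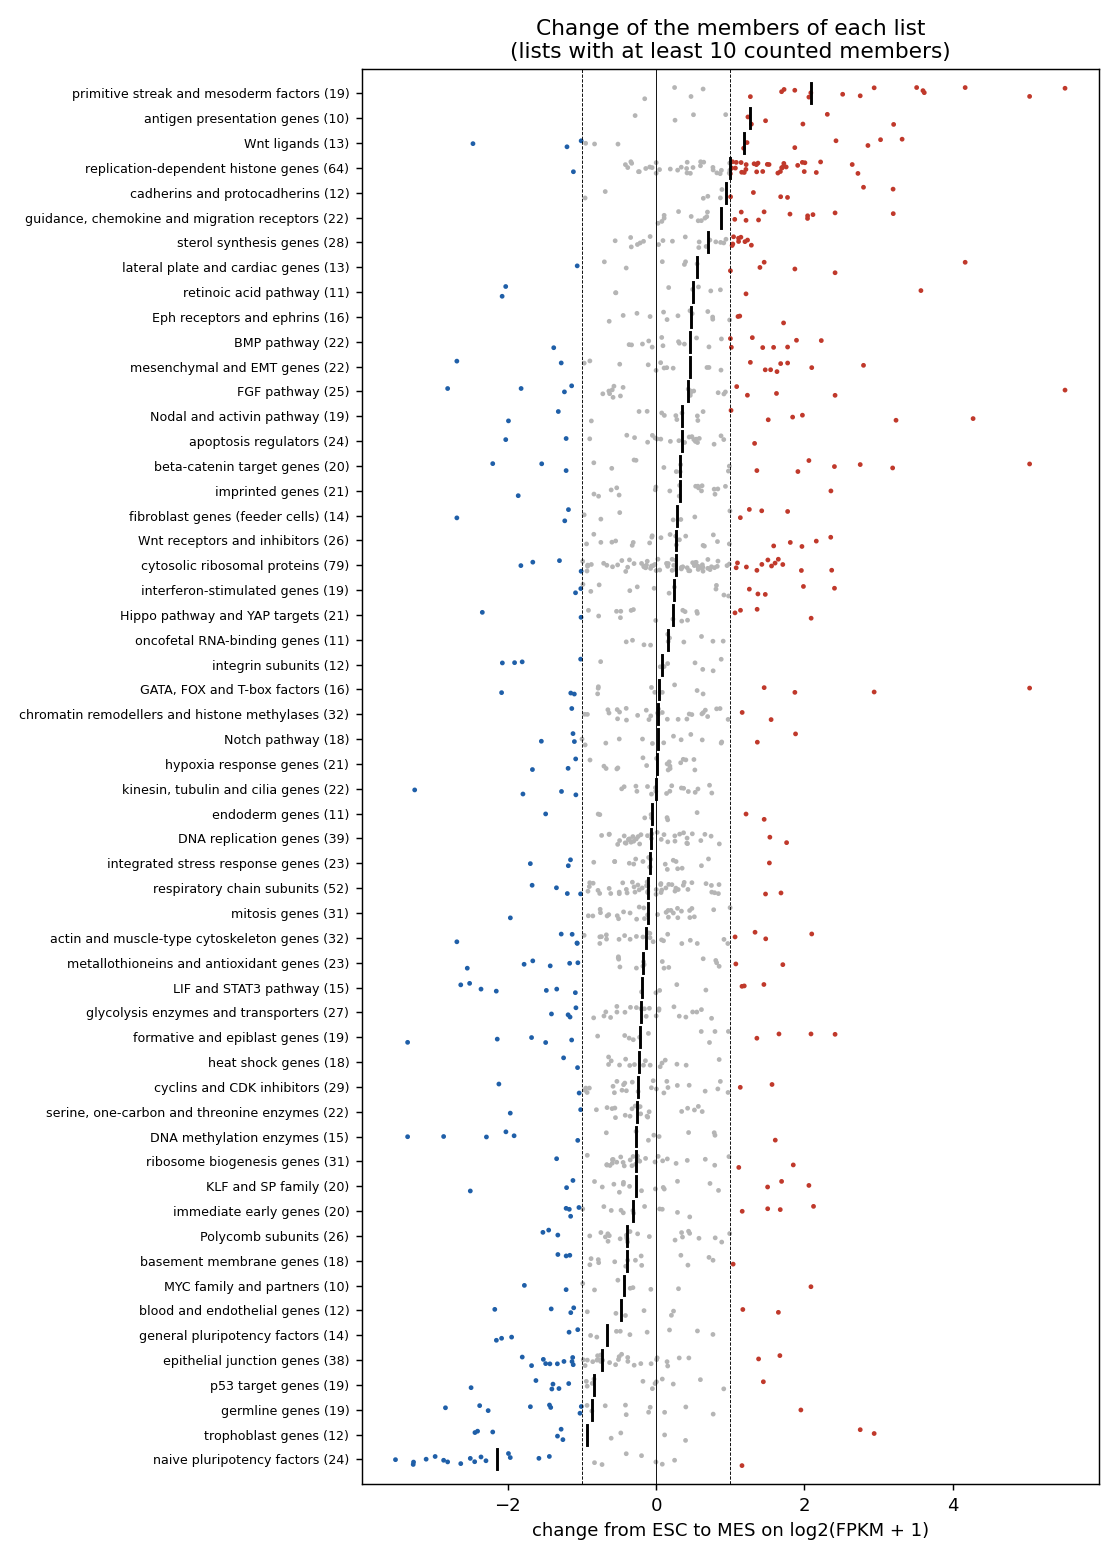
Change on the log2(FPKM + 1) scale (MES minus ESC, x axis) of every counted member of the 56 lists with at least 10 counted genes (y axis), with risen genes in red, fallen genes in blue, others in grey and the median as a black bar. The median is highest for primitive streak factors, at 2.09, and lowest for naive factors, at -2.14.

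Outside the lists, the genes that rose most were *Alox15*, a lipoxygenase, from 1.45 to 32.3 FPKM, *Tsc22d3* (GILZ), from 0.788 to 12.3 FPKM, *Ppp4r4*, from 2.69 to 23.8 FPKM, *Rftn1*, from 2.05 to 18.1 FPKM, and *Prtg*, an adhesion protein of the early embryo, from 4.11 to 30.1 FPKM. *Foxo4* rose from 9.96 to 63.8 FPKM and *Bcat1*, a branched-chain aminotransferase, from 2.74 to 18.4 FPKM. A locus named *Defa4,Gm10104* was listed at 0 in ESC and had 12.6 FPKM in MES, and genes of that family share reads. The genes that fell most include *Fam25c*, from 33.9 to 0.961 FPKM, *Hsd17b14*, from 18.7 to 0.249 FPKM, *Mylpf*, a myosin light chain, from 36.2 to 1.62 FPKM, and *Gpa33*, from 14.8 to 0.519 FPKM. *Ooep* and *Morc1*, genes of the oocyte and the male germ line, fell from 17.4 to 1.55 FPKM and from 12.7 to 0.823 FPKM.

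A group of genes had an ESC level apart from all later stages. *Lars2*, a mitochondrial leucyl-tRNA synthetase, and *Gm20594* had 981 and 239.8 FPKM in ESC and at most 21.5 and 2.46 FPKM in the other 4 stages, the strongest falls of all counted genes outside the lists. Upwards, *Rpl14* had 13.5 FPKM in ESC and 73.8 to 92.5 FPKM later, *Rps18* had 31.8 FPKM and 121 to 147 FPKM, and the histone gene *H3f3a* 2.84 FPKM and 17.8 to 19.4 FPKM. Of 79 counted ribosomal protein genes 12 rose and 4 fell. In 14 of these 16, FPKM + 1 in MES, HB and HP lay within 1.5-fold of each other. The same held for 21 of the 33 histone genes that rose or fell, for 240 of all 737 risen genes and for 361 of all 774 fallen genes. Genes near 0 in MES, HB and HP also meet this limit, and 241 of the fallen genes ended below 1 FPKM in MES. None of the 15 streak genes that rose met it. Of these, *T*, *Fgf8*, *Mesp1* and *Mixl1* had 0.141, 0.0299, 0.00916 and 0.127 FPKM in HP, so that they could not meet it. Members that rose or fell and met it numbered 4 in the respiratory chain list and 4 in the metallothionein and antioxidant list. Ribosomal protein genes have many near-identical copies in the genome, so that their values are uncertain. The notes on the ESC samples name other processing tools than those on the MES samples, and whether this bears on these levels was not tested.

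Properties of the genes themselves moved with the change. Over 9975 genes with a transcript length, histones left out, the share that fell went from 12.7% in the shortest eighth, up to 1595 nt, to 3.29% in the longest, from 6332 nt, while the share that rose was 5.84% and 8.18%. The median change went from -0.13 to 0.13. Over 8587 counted genes with a promoter window, 27.6% of the 156 with at most 3 CpG in 300 bases fell and 10.3% rose, against 5.46% and 6.48% of the 5398 with 20 or more. Where the higher stage reached 5 FPKM these shares were 29.9% and 13.4%, against 6.35% and 7.48%. The part of length and of CpG content in the results of single lists was not tested.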

How the data were processed

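RNA-seq of mouse ESCs and sorted MES cells was used as deposited. Per the labels and the supplemental methods, the authors used SHRiMP to place SOLiD colour-space reads on mm10 (GRCm38), dropped reads with several placements and, through Picard, duplicates, and estimated levels by Cufflinks (cuffdiff), and the deposited FPKM values merge the 2 replicates of a stage into 1 value per TSS. Versions are not given in the sources used here. The submitters' processing notes name Cufflinks for MES and Bowtie and HOMER for ESC. Depth is unknown from FPKM. A further table gave FPKM per gene for untreated MEFs at day 12 and day 21 and was normalized separately. In all, 7 columns of values were not used.

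TSS rows were summed per locus and gene name, and genes with at least 1 FPKM in ESC or MES were compared on log2(FPKM + 1) with a 2-fold limit, with Python 3.11.15 scripts (pandas 2.3.3, numpy 2.4.6, matplotlib 3.10.9) that were tested on simulated data. Gene positions are those of the deposited loci, written from 1. Transcript lengths are the longest of GENCODE M21, for 94.6% of genes, and promoter windows of 300 bases are from RefSeq GRCm38.p6, for 81% of counted genes. The members and the 67 gene lists were chosen with earlier results of these data known. Named genes are, for each list, up to 8 members with at least 5 FPKM and a 2-fold change in order of size, central members whatever their change, *T* and *Kdr*, and up to 15 genes each way outside the lists with at least 10 FPKM. Members with lower levels that are named beside them were chosen after their values were seen.

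No test was run, since each stage has 1 value. Alternatives were other pseudocounts (0.1 and 0.001), minimum levels (5 FPKM, none), fold limits (1.5 and 4), scalings and single TSS rows. Values of a few list members are not reported here.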

Additional observations from a re-analysis of the deposited data

How the results depend on the processing

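The counts of 737 risen and 774 fallen genes moved by less than 1.5 times with a minimum of 5 FPKM (560 and 544), with both scalings and with single TSS rows (856 and 876). They were equal without a minimum, since a gene under 1 FPKM cannot reach the limit. With a pseudocount of 0.1 they were 1140 and 1226, with 0.001 they were 1195 and 1270, at 1.5-fold 1781 and 1868, and at 4-fold 76 and 112. Neither scaling moved the median change of all counted genes by more than 0.017. List medians are compared for the 65 lists with at least 3 counted genes, taking a move within 1.5-fold as none. Both scalings moved no list and a pseudocount of 0.1 moved 9: 2-cell-like -3.23, germline -1.85, primitive streak 3.20, paraxial 1.59, neural -3.00, trophoblast -2.03, red cell -4.81, Wnt ligands 2.03 and Rhox -3.44. With a minimum of 5 FPKM 16 moved: 2-cell-like -0.0445, germline -1.56, primitive streak 2.85, paraxial 3.30, lateral plate 1.87, blood and endothelial 0.23, trophoblast 0.11, red cell -3.60, macrophage -1.07, FGF -0.57, Wnt ligands 2.43, beta-catenin targets 1.99, Hedgehog 1.49, guidance receptors 1.51, GATA, FOX and T-box 0.63 and Rhox -2.44. Of these, the blood and endothelial, trophoblast and FGF medians changed sign. Of 318 listed or named genes with a 2-fold change and at least 5 FPKM, all kept their direction. Upper-quartile scaling took 2 below the limit, and a pseudocount of 0.1 moved the change of 52 by more than 1.5-fold. No paired analysis was possible because the replicates are merged, and leaving out a replicate could not be run for the same reason. Without replicate values no spread stands behind any difference, and FPKM gives no depth.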

Other observations

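Of 514 genes with at least 2 counted TSS rows, 31 had a row that rose and another that fell by the 2-fold limit. *Igf2*, an imprinted growth factor, had a row that went from 0.00471 to 10.6 FPKM beside a row that went from 8.21 to 3.14 FPKM. In *Grb10*, an imprinted growth inhibitor, a row went from 11.5 to 0.332 FPKM and another from 21.7 to 48.1 FPKM. *Capzb*, an actin capping subunit, had a row listed at 0 in ESC and at 20.7 FPKM in MES, beside rows that went from 17.4 to 5.56 FPKM and from 53.8 to 31.7 FPKM. *Kdm3a*, a histone demethylase, had rows that went from 16.9 to 4.02 FPKM and from 0.777 to 3.79 FPKM. *Zfp217* had rows that went from 8.39 to 1.12 FPKM and from 4.66 to 16.4 FPKM, and *Cldn7* from 3.22 to 0.7 FPKM and from 4.49 to 26 FPKM. Rows of a gene share exons, and how Cufflinks divides reads between them was not tested.

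By chromosome, the median change lay between -0.12 (chromosome 7, where 12.3% of 836 counted genes fell) and 0.13 (chromosome 18). On chromosome 13 12.9% of 420 genes rose, and 7.84% of the 370 left without the histone list. On the X chromosome 48 of 360 counted genes rose (13.3%) and 27 fell (7.5%). Among those that rose were *Apln*, *Foxo4*, *Amot*, the glypican *Gpc3*, from 13 to 41.2 FPKM, the RNA helicase *Ddx3x*, from 72.8 to 158 FPKM, and the kinase *Rps6ka6*, from 12.5 to 50.5 FPKM. Among those that fell were *Nr0b1*, *Klhl13*, from 47.8 to 8.78 FPKM, and moesin (*Msn*), from 71.4 to 19.9 FPKM.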
